A study of Mus musculus with 49 samples.

Results

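Leukaemias that arose from common myeloid progenitors (CMPs) transformed with the MLL-AF9 (MA9) fusion, termed CMP:MA9, were compared with normal CMPs by RNA sequencing of bulk sorted cells. Genes were kept where their average over the 9 samples reached 1 FPKM (fragments per kilobase of transcript, scaled to the reads mapped), which left 12371 of the 38253 genes in the table. The 4 CMP:MA9 samples were GFP-positive bulk leukaemia cells from recipients that had been sublethally irradiated and transplanted with CMPs carrying a retrovirus that encodes MLL-AF9 and GFP, with transcription from the viral promoter. The 5 normal CMP samples were each sorted from the lineage-depleted bone marrow of 1 mouse as c-Kit+ CD34+ cells with low Fcγ receptor and without Sca-1 or CD150. The labels give wild-type C57BL/6J mice of 6 to 12 weeks and bone marrow for all 9 samples, whereas the study's methods describe the leukaemia cells as taken from spleen, so organ, irradiated host, retroviral transduction and transformation cannot be told apart here. The GFP gate does not select a differentiation stage, while the gate for normal CMPs does, and in such bulk samples fewer cells of a type and less RNA per cell cannot be told apart. The transcript of the fusion itself was not analysed here.

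The CMP is a progenitor of the bone marrow that feeds both the granulocyte and monocyte branch and the branch to red cells and platelets. It carries the stem cell factor receptor Kit, and it already transcribes genes of both branches, such as myeloperoxidase on one side and Gata1 on the other. MLL-AF9 joins the amino-terminal part of the histone methyltransferase MLL to AF9, a protein of the transcription elongation machinery that brings in the DOT1L methyltransferase. In acute myeloid leukaemia the fusion is best known for holding the HoxA genes and Meis1 active in cells that would otherwise shut them off.

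In normal CMPs Kit and Cd34 went with the gate, with Kit at 94.0, 92.7, 103, 113 and 104 FPKM and Cd34 at 78.7 to 182 FPKM. Genes of proteins that the gate excludes were low but not absent. Ly6a, the gene of Sca-1, was at 3.33 to 8.46 FPKM, and Slamf1, the gene of CD150, had a mean of 3.44 FPKM. The leukaemias were sorted on GFP, which was not checked here. Markers of B, T and NK, stromal and endothelial cells were mostly low in both groups. Erythroid genes in CMPs and neutrophil genes in the leukaemias, treated below, were not. Of 12 B cell markers, 4 passed the filter on low values, of 13 T and NK cell markers 3, and of 14 stromal and endothelial markers 3, and the defining Cd3e, Cd3g and Col1a1 were not among them. Of the stromal and endothelial markers that passed, 1 was called higher (33.3%, against 13.2% of all genes tested), and 1 had a mean below 1 FPKM in CMPs. That list summed to 44.2 to 61.4 FPKM in the leukaemias and 27.95 to 44.9 FPKM in CMPs. The leukaemia libraries held 16202 to 16470 genes above 0 and the CMP libraries 16497 to 17277, so every CMP library held more. Mitochondrial genes took 12.8% to 22.9% of the summed FPKM in the leukaemias and 12.5% to 28.2% in CMPs. The FPKM table keeps only relative depth, with the median sample set to 1. It ran from 0.847 to 1 in the leukaemias and from 1.24 to 1.51 in CMP replicates 1, 2, 3 and 5. CMP replicate 4 was at 0.779. Samples of 1 group correlated at 0.935 to 0.980 across genes on the log2(FPKM + 1) scale, against 0.737 to 0.806 between the groups. The first principal component, with 75.6% of the variance, separated the groups, and the second, with 7.0%, set CMP:MA9 replicate 3 apart.

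Between leukaemias and normal CMPs, 3521 of the genes tested changed (28.5%). With limma on log2(FPKM + 1), at a Benjamini-Hochberg adjusted p below 0.05 and a log2 change above 1 in size, 1638 genes rose (13.2%) and 1883 fell (15.2%). At any size of change, 7431 genes (60.1%) had an adjusted p below 0.05. Among them, 256 rose and 153 fell by more than 3 on the log2 scale. Leaving out CMP:MA9 replicate 3, which was highest in neutrophil genes, and CMP replicate 5, which was highest in erythroid genes, gave 3621 calls. The median change of all tested genes was −0.17, and scaling the samples by their median ratio moved it by 0.14 to −0.03, with 1915 genes then called higher and 1512 lower. In 48.9% of the genes tested the groups did not overlap, 19.3% with every leukaemia higher and 29.6% with every leukaemia lower. A further view is of genes that were on in 1 group and off in the other. At below 0.1 FPKM in every CMP:MA9 sample and at least 1 FPKM in every CMP sample there were 147 genes, and the reverse held for 57 genes. Every CMP library also held more genes above 0 than every leukaemia, and the part of depth in these counts was not tested.

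**Figure D1:**
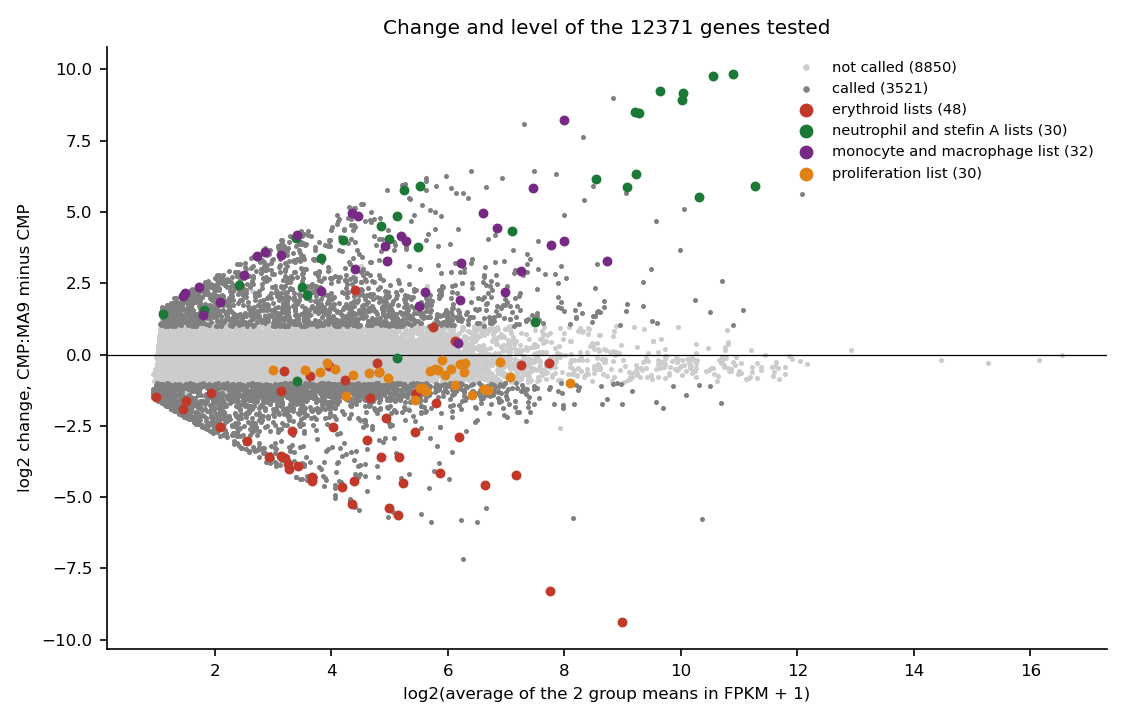
The 12371 genes tested, with the log2 of their average level in FPKM + 1 over the 2 groups on the x axis and the log2 change, CMP:MA9 minus CMP, on the y axis; grey points are genes, darker where called, and colours mark the erythroid, neutrophil and stefin, monocyte and proliferation lists. Neutrophil and stefin genes reach a change of 9.83 at Stfa1, and erythroid genes extend down to −9.37 at Car1.

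The largest named rise was that of Stfa1, of the stefin A cluster on chromosome 16, whose genes encode small inhibitors of cysteine proteases in granulocytes and monocytes. All 6 members above the filter had a mean below 1 FPKM in CMPs and passed it through the leukaemias alone, so they had to be higher there, and no count over them is read. Stfa1 (chr16:36277213-36285457, NCBIM37, the build also called mm9) was at 0.24, 0.94, 0.59, 1.38 and 0.86 FPKM in CMPs and at 357, 649, 11896 and 2363 FPKM in the leukaemias, a log2 change of 9.83 ± 0.80 (SE, adjusted p = 2.42e-06). Every leukaemia was far above every CMP sample, and the leukaemias themselves differed widely, with replicate 3 the highest. Stfa2l1 (log2 change 9.25 ± 0.75), Stfa3 (8.51 ± 0.76) and Stfa2 (8.47 ± 0.78) were highest in replicate 3 as well. The genes are near-copies, and 62.8% of the 31-base windows in Stfa1 transcripts also occurred in other genes, so its level is uncertain; Stfa3, for which that share was 0%, rose to 128, 264, 3950 and 379 FPKM from at most 0.59 FPKM.

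The upstream sequences of 4 stefin genes are shown because these neighbours rose together and are near-copies upstream as well. They are the 250 bases before the start that RefSeq annotates (GRCm38.p6), placed on NCBIM37 by exact match at chr16:36276984-36277233 (plus strand) for Stfa1, chr16:36408450-36408699 (minus) for Stfa2, chr16:36156647-36156896 (plus) for Stfa2l1 and chr16:36455479-36455728 (minus) for Stfa3. This start is not always that of the gene positions given here, and the windows of Stfa1 and Stfa2 reach into those positions. Capitals mark runs of at least 12 bases that all 4 hold.
Stfa1: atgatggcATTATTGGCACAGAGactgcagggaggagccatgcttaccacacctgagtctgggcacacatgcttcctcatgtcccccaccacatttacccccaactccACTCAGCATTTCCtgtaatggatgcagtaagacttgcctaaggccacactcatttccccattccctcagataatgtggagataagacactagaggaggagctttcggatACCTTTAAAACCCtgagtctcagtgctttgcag
Stfa2: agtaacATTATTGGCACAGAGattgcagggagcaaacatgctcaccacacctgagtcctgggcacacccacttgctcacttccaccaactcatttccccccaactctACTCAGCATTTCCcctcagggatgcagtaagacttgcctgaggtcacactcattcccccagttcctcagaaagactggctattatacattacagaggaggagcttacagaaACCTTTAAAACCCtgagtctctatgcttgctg
Stfa2l1: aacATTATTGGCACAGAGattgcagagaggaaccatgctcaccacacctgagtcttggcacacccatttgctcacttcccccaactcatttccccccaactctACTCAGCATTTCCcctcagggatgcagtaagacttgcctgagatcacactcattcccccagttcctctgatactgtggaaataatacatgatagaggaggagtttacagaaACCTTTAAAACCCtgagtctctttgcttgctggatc
Stfa3: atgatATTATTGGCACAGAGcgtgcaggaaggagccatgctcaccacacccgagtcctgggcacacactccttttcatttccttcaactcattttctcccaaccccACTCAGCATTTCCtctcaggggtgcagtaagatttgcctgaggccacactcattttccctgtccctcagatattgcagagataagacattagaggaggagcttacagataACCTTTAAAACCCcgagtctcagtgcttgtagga
Aligned in pairs, they were identical at 81.2% to 90.8% of the 250 bases, and Stfa2 and Stfa2l1 were the closest pair. The 3 shared runs add up to 41 bases, of which the longest has 15, and the one nearest the start, ACCTTTAAAACCC, holds an A and T rich core. The C/EBP motif TTGCNNAA, searched on both strands, was present in 1 of the 4, the PU.1 motif AGGAAGT in none and the GATA motif (AGATAA or TGATAA) in 2.

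Outside the stefin cluster, the largest rises included genes of lipid mediators, lipoproteins, matrix and phagocytes. Hpgd, which encodes the dehydrogenase that inactivates prostaglandins, was at 0.76, 0.65, 0.61, 1.52 and 0.29 FPKM in CMPs and at 1090.1, 1164, 650.0 and 726.5 FPKM in the leukaemias (log2 change 9.0 ± 0.22, adjusted p = 4.48e-10). All 4 leukaemias were close to each other and far above the CMPs. Fn1, the gene of the matrix protein fibronectin, was at 0.28 to 0.95 FPKM in CMPs and at 640, 673, 219 and 509.7 FPKM in the leukaemias (8.24 ± 0.30). Apoc2, which encodes the apolipoprotein that activates lipoprotein lipase, was at 0 to 0.32 FPKM in CMPs and at 312, 305, 399 and 244 FPKM in the leukaemias (8.09 ± 0.16). Chi3l3 (log2 change 8.92), a chitinase-like protein of myeloid cells, Cybb (6.45), the catalytic subunit of the phagocyte oxidase, the inhibitory receptor Lilrb4 (6.42), Ifitm6 (6.33) and the iron-binding granule protein Lcn2 (6.32) complete the 12 largest named rises.

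**Figure D2:**
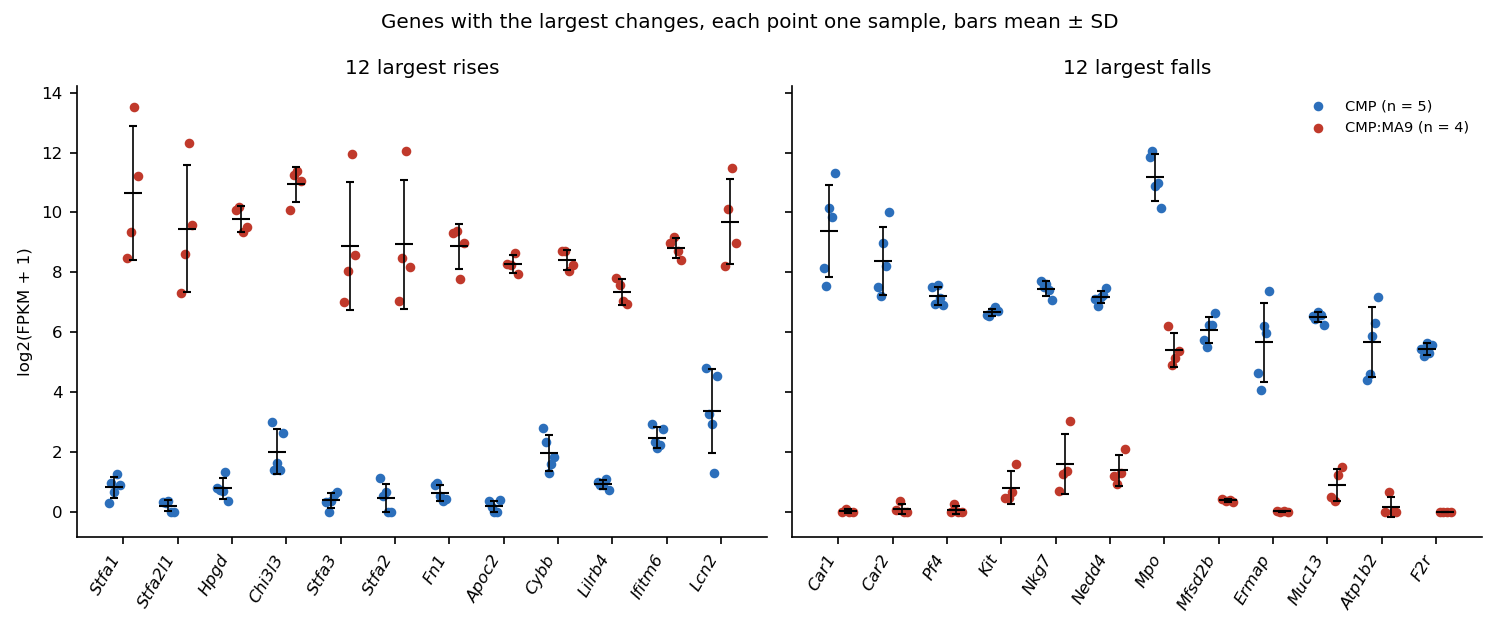
The 12 largest rises (left) and the 12 largest falls (right), on the log2(FPKM + 1) scale; each point is 1 sample, coloured by group, and black bars give the mean ± SD of 5 CMP or 4 CMP:MA9 samples. The groups do not overlap for any of these genes, and the stefin genes spread widely among the leukaemias, from 357 to 11896 FPKM for Stfa1.

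The falls were led by genes of red cells, platelets and uncommitted progenitors. Car1 and Car2 encode carbonic anhydrases of red cell precursors. Car1 (chr3:14766217-14778459) was at 281, 184, 1126, 918 and 2541 FPKM in CMPs and at 0, 0.08, 0 and 0 FPKM in the leukaemias (log2 change −9.37 ± 0.63, adjusted p = 5.48e-07). It varied widely among normal CMPs, with replicate 5 the highest, and was at or near 0 in every leukaemia. Car2 fell by 8.28, from at least 147 FPKM in CMPs to at most 0.28 FPKM. Pf4, the platelet chemokine, was at 180.0, 122, 189, 141 and 120.3 FPKM in CMPs and at 0, 0.2, 0 and 0 FPKM in the leukaemias (−7.15 ± 0.16, adjusted p = 3.99e-10). F2r, the thrombin receptor, was listed at 0 in all 4 leukaemias and at 35.7 to 49.2 FPKM in CMPs (adjusted p = 3.99e-10).

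Kit was at 0.37, 0.38, 0.6 and 2.06 FPKM in the leukaemias, a log2 change of −5.87 ± 0.22 (adjusted p = 7.06e-09) from the CMP values given above. Normal CMPs were sorted on this protein and the leukaemias were not, and the part of the gate in this fall was not tested. The same holds for Cd34, another marker of the sort, which fell by 1.83 on the log2 scale. Mpo, myeloperoxidase, the main enzyme of primary granules, was at 3678, 4292, 1882, 2031 and 1122.5 FPKM in CMPs and at 73.1, 29.2, 34.0 and 40.1 FPKM in the leukaemias (−5.78 ± 0.38, adjusted p = 5.24e-07). The lowest CMP sample was thus far above the highest leukaemia for this myeloid gene. The other named falls were the cytotoxic granule gene Nkg7 (−5.87), the ubiquitin ligase gene Nedd4 (−5.79), Mfsd2b (−5.69), which encodes a lipid transporter of red cells and platelets, Ermap (−5.64), a red cell membrane protein, the mucin Muc13 (−5.59) and Atp1b2 (−5.51), a subunit of the sodium pump.

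Genes known as targets of MLL fusions did not move as 1 group. Of 23 members tested, 8 rose (34.8%, against 13.2% of all genes tested) and 6 fell (26.1%, against 15.2%). A mean below 1 FPKM was found for 3 of the 23 in the leukaemias and for 1 in CMPs. These passed the filter through the other group alone and had to be higher there. Their median log2 change was 0.52. Hoxa9, which supports self-renewal in this leukaemia, was at 10.4, 7.91, 8.09, 9.06 and 5.61 FPKM in CMPs and at 25.2, 26.9, 23.6 and 38.8 FPKM in the leukaemias (log2 change 1.68 ± 0.19, adjusted p = 2.15e-05). Hoxa10 was at 0.43 to 1.46 FPKM in CMPs and at 10.01, 14.3, 14.1 and 25.8 FPKM in the leukaemias (3.11 ± 0.26). For both genes every leukaemia was above every CMP sample. Hoxa3, Hoxa5, Hoxa6, Pbx3, Eya1 and Id2 rose too, and Hoxa7, with a change of 0.94 (adjusted p = 0.00205), stayed under the fold threshold.

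Meis1, the cofactor of HoxA proteins, was already at 53.7, 52.0, 57.2, 64.8 and 34.3 FPKM in normal CMPs and was at 35.6, 35.4, 50.9 and 62.9 FPKM in the leukaemias (log2 change −0.19 ± 0.21, adjusted p = 0.462). The ranges overlapped along most of their length. Cdk6 (0.01 ± 0.19) and Flt3 (0.05 ± 0.32) also overlapped. The members that fell were Myb (−1.22), Myc (−2.33), Bcl2 (−1.41), Sox4 (−2.82), Zfp521 (−2.52) and Mecom (−2.49). Myc, which drives growth and ribosome production, was at 238 to 290 FPKM in CMPs and at 44.1, 49.0, 82.1 and 42.7 FPKM in the leukaemias.

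The genes of the fusion's partners and of chromatin complexes were called in 23.1% of members, against 28.5% of all genes tested. Of 26 members of the MLL and DOT1L complexes and Polycomb, 5 fell (19.2%, near the 15.2% of all genes tested) and 1 rose (median −0.25), or 3 rose without CMP:MA9 replicate 1. Psip1, which tethers MLL to chromatin, fell by 1.88, the Polycomb methyltransferase Ezh2 by 1.27 and Men1, the scaffold of the MLL complex, by 1.18 on the log2 scale. Jarid2 rose (1.08 ± 0.12). Dot1l, with a change of −0.87, and Mllt3, the gene of AF9, with 0.53, did not pass the test. Of 13 enzymes of DNA methylation, 6 fell (46.2%, against 15.2% of all genes tested) and 3 rose (23.1%, against 13.2%). A mean below 1 FPKM was found for 1 of the 13 in the leukaemias and for 1 in CMPs. Tet1, a methylcytosine oxidase, was at 14.02 to 20.5 FPKM in CMPs and at 1.04, 0.39, 1.99 and 0.07 FPKM in the leukaemias (−3.41 ± 0.27, adjusted p = 1.75e-06). The de novo methyltransferase Dnmt3b fell by 2.14, and Tet2 rose by 1.11 with all leukaemias above all CMPs. Dnmt3l, a cofactor of the de novo methyltransferases, was listed at 0 in all 5 CMP samples and at 1.11, 5.24, 10.6 and 7.91 FPKM in the leukaemias.

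**Figure D3:**
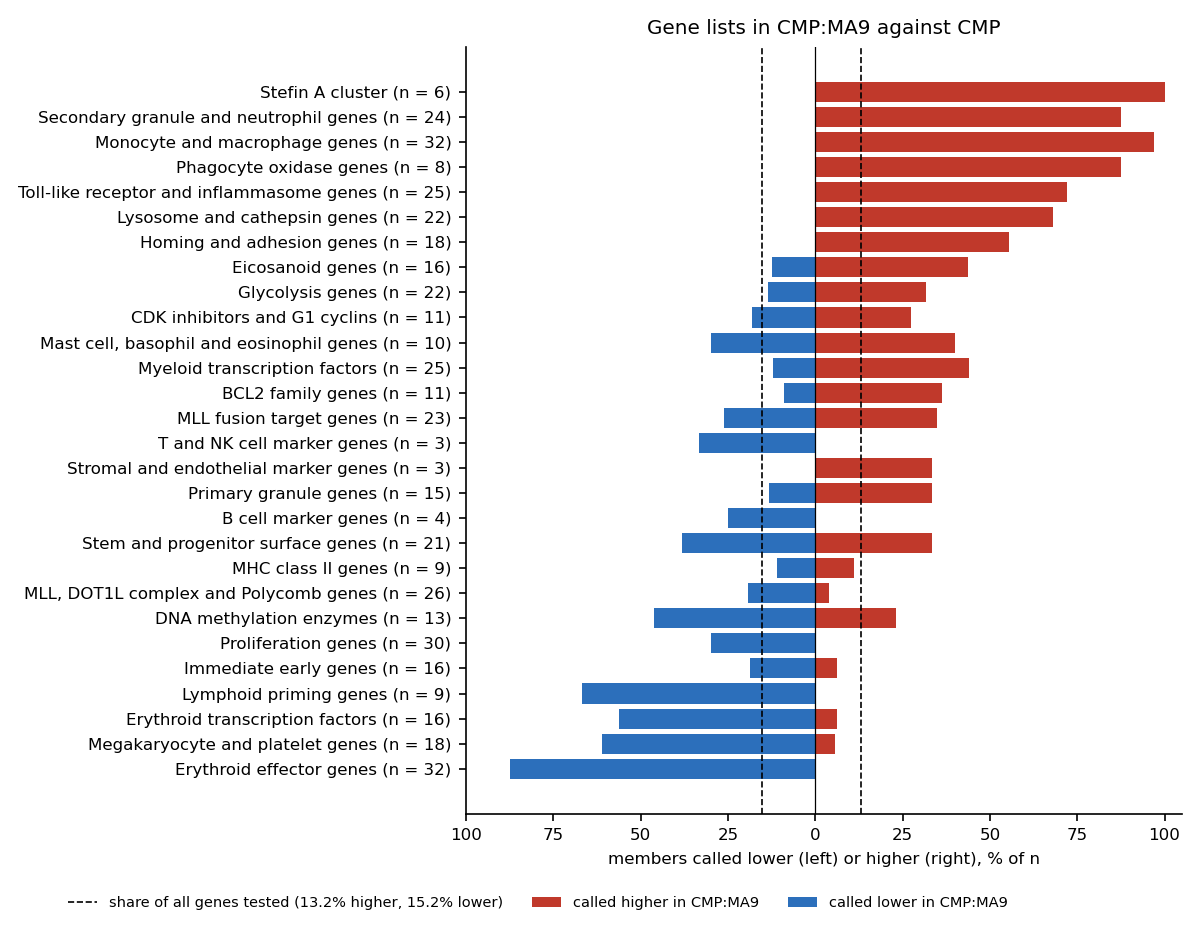
Share of the members above the filter that were called higher (bars to the right) or lower (bars to the left) in CMP:MA9, in % of the n beside each list, with dashed lines at the shares of all genes tested, 13.2% higher and 15.2% lower. The monocyte and neutrophil lists have long bars to the right only, as does the stefin list, whose bar the filter fixed, and the erythroid effectors, at 87.5% lower, a long bar to the left only.

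Erythroid genes fell together. Of 32 effector genes that all passed the filter, 28 fell and none rose (87.5%, against 15.2% of all genes tested), with a median log2 change of −3.0 against −0.17 over all genes. Of the 32, 16 had a mean below 1 FPKM in the leukaemias and passed the filter through the CMPs alone, so they had to be lower there. Without CMP:MA9 replicate 3 and CMP replicate 5 the count was 27. Rhag and Kel, surface proteins of the red cell, were listed at 0 in all 4 leukaemias, whereas in CMPs Rhag was at 4.84 to 53.7 FPKM and Kel at 6.91 to 32.5 FPKM. Epor, the erythropoietin receptor, was at 9.33, 5.6, 17.7, 15.04 and 37.1 FPKM in CMPs and at 0.04, 0, 0.1 and 0.1 FPKM in the leukaemias (−3.83 ± 0.40, adjusted p = 1.51e-05). The 4 globin genes listed fell by 3.59 to 4.58 on the log2 scale, and because Hba-a1 and Hba-a2 share 74% and 91% of their windows with other genes they cannot be told from each other. Fech, Ppox, Slc25a37 and Bpgm did not pass the test.

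The transcription factors of this lineage fell as well, 9 of 16 (56.2%, against 15.2% of all genes tested). E2f2 alone rose (6.25%, against 13.2%). Of the 16, 5 had a mean below 1 FPKM in the leukaemias. Gata1, the master regulator of red cells and megakaryocytes, was at 12.95, 11.2, 26.0, 22.4 and 44.5 FPKM in CMPs and was listed at 0 in all 4 leukaemias (adjusted p = 1.22e-06). Klf1, which switches on adult globin genes, was at 14.6, 13.4, 35.3, 26.4 and 80.8 FPKM in CMPs and at 0, 0.17, 0.18 and 0.19 FPKM in the leukaemias (log2 change −4.64 ± 0.43). Tal1, their partner at GATA sites, was at 27.9, 31.02, 39.7, 38.7 and 56.8 FPKM in CMPs and at 0, 0.14, 0 and 0 FPKM in the leukaemias (−5.23 ± 0.19). CMP replicate 5 was the highest CMP sample for all 3, and no leukaemia reached 0.2 FPKM for any of them. Gata2, used earlier in the hierarchy, was at 65.6 to 79.5 FPKM in CMPs and remained at 6.4, 8.8, 10.7 and 19.0 FPKM in the leukaemias (−2.70 ± 0.23). Nfe2, Lmo2, Lyl1, Cbfa2t3, Ikzf1 and Mybl2 did not pass the test, which is not to say that they were unchanged. Over the 16, the groups did not overlap for 11 with every leukaemia lower and for 3 with every leukaemia higher. Over all genes tested these shares were 29.6% and 19.3%.

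Since GATA1 acts through short GATA sites, the 250 upstream bases of these genes were searched for AGATAA or TGATAA on either strand. Of the 37 erythroid genes called lower, 27 had a RefSeq promoter sequence that could be used, and 14 of these held the motif (51.9%), against 9.29% of 8032 tested genes with such a sequence. The KLF motif CCACCC was held by 48.1% of the 27 and by 32.6% of all. The 3 uniquely placed sequences with the motif and the largest falls are shown, with the motif in capitals, from RefSeq (GRCm38.p6) and placed on NCBIM37 at chr4:118862601-118862850 (minus strand), chr4:114728781-114729030 (plus) and chr8:87425631-87425880 (plus).
Ermap: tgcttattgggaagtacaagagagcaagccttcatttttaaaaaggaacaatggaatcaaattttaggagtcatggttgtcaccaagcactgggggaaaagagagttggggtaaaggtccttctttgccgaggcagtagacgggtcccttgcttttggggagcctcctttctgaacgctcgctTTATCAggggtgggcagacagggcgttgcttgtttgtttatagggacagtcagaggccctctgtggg
Tal1: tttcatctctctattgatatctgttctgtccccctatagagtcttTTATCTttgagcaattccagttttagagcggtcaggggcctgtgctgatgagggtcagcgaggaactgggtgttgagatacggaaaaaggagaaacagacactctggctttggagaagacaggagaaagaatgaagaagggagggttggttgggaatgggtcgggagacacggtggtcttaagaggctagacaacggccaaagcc
Klf1: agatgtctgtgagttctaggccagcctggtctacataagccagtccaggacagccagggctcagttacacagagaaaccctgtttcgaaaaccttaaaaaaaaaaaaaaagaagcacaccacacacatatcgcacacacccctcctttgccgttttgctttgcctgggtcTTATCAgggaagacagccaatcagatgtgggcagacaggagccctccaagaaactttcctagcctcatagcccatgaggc
All 3 hold the motif on the opposite strand, as TTATCA or TTATCT. It begins 67 bases before the RefSeq start in Ermap, 205 in Tal1 and 80 in Klf1. The windows of Ermap and Klf1 reach into the gene positions of the annotation used elsewhere. The match describes the letters only, and binding was not measured.

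Megakaryocyte and platelet genes fell in 11 of 18 members (61.1%, against 15.2% of all genes tested, median −2.0), and 9 of the 18 had a mean below 1 FPKM in the leukaemias. Itga2b, the platelet integrin, was at 54.8, 45.9, 44.6, 45.0 and 32.6 FPKM in CMPs and at 1.03, 2, 0.89 and 1.67 FPKM in the leukaemias (log2 change −4.26 ± 0.18, adjusted p = 1.75e-08). Vwf, which encodes von Willebrand factor, did not follow it. It was at 14.95, 11.2, 19.0, 16.3 and 12.7 FPKM in CMPs and at 12.8, 11.6, 12.0 and 15.6 FPKM in the leukaemias (−0.16 ± 0.16, adjusted p = 0.393), and Fli1, Cd9, Plek and Itgb3 did not pass the test either. Thbs1 rose (1.36 ± 0.53), with replicate 3 at 15.9 FPKM against 1.12 to 1.73 FPKM in the other leukaemias, and lost its call when any single CMP sample or CMP:MA9 replicate 4 was left out.

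Genes of neutrophil granules rose in 21 of 24 members (87.5%, against 13.2% of all genes tested) and fell in none, with a median log2 change of 4.08. Of the 24, 10 had a mean below 1 FPKM in CMPs and passed the filter through the leukaemias alone. Without CMP:MA9 replicate 3 and CMP replicate 5, 19 rose. S100a8 and S100a9 encode the calcium-binding pair that fills the neutrophil cytosol. S100a9 was at 113, 28.9, 19.1, 8.14 and 103 FPKM in CMPs and at 545, 3675, 14688 and 759 FPKM in the leukaemias (5.90 ± 1.00, adjusted p = 0.000434). All leukaemias were above all CMPs, and replicates 2 and 3 were several times higher than replicates 1 and 4. Camp, the antimicrobial peptide precursor, was at 0 to 11.6 FPKM in CMPs and at 95.0, 387, 2409 and 72.9 FPKM in the leukaemias (6.14 ± 1.03). Ltf, lactoferrin, overlapped between the groups, with 0.73 FPKM in replicate 4 against up to 3.83 FPKM in CMPs (2.36 ± 0.84, adjusted p = 0.0299), and its call was lost without CMP replicate 2, 3 or 4 or CMP:MA9 replicate 2 or 3. Ly6g, the neutrophil surface marker, was at 0, 8.34, 10.2 and 0.69 FPKM in the leukaemias and did not pass the test (adjusted p = 0.0569). Csf3r, the G-CSF receptor, and Cxcr2, the chemokine receptor of mature neutrophils, did not pass it either, with changes of −0.13 and −0.92, although Cxcr2 was called lower without CMP replicate 5 or CMP:MA9 replicate 2 or 3.

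**Figure D4:**
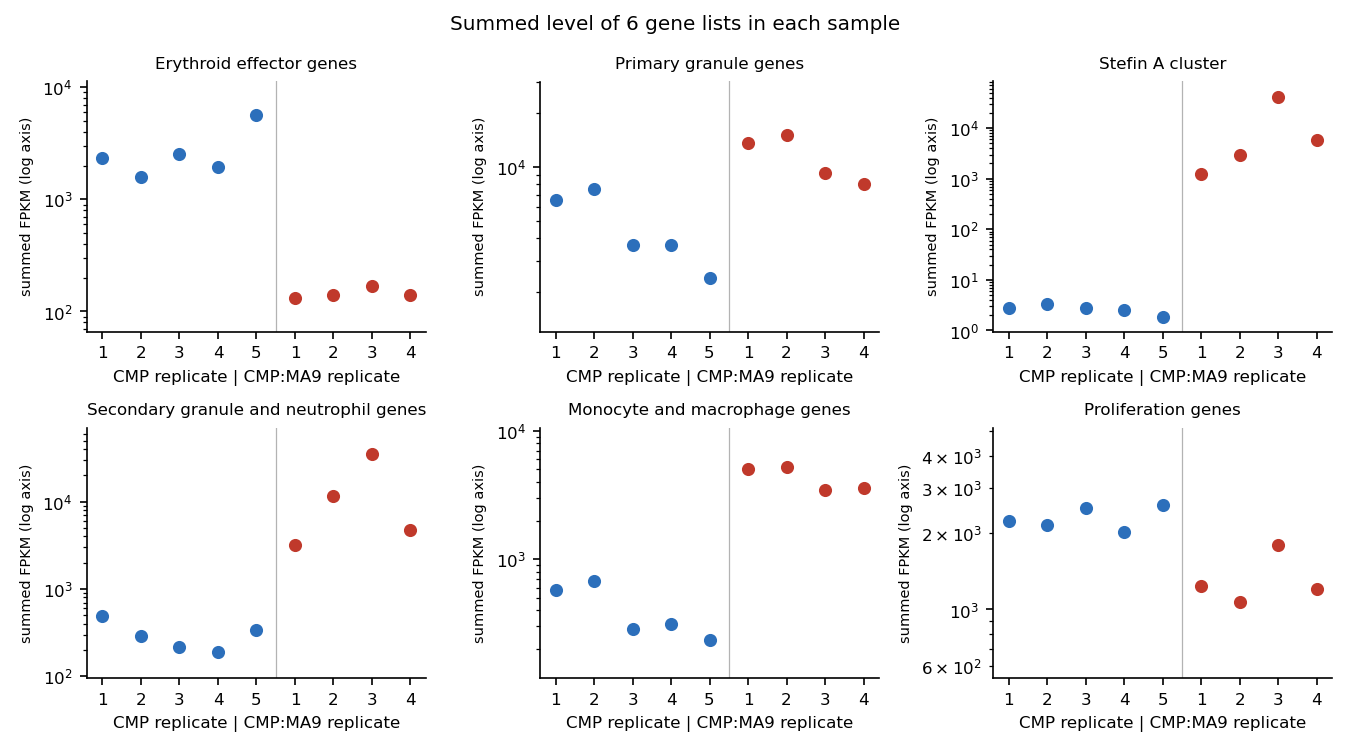
Summed FPKM of 6 gene lists in each of the 5 CMP and 4 CMP:MA9 samples, 1 point per sample, on log axes that differ between panels. The erythroid sum was 132 to 168 in the leukaemias and 1579 to 5636 in CMPs, and the neutrophil sum was highest in CMP:MA9 replicate 3, at 34912.

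Primary granule genes, which normal CMPs and granulocyte macrophage progenitors (GMPs) already transcribe, did not move together. Of 15 members, 5 rose (33.3%, against 13.2% of all genes tested) and 2 fell (13.3%, near the 15.2% of all). The median change was 0.19. Beside the fall of Mpo, Elane, the neutrophil elastase gene, was at 351, 447, 112, 177 and 66.2 FPKM in CMPs and at 157, 291, 680.1 and 362 FPKM in the leukaemias (0.82 ± 0.56, adjusted p = 0.222). Prtn3 had a change of 0.19 ± 0.32 and Ctsg of −0.29 ± 0.33, both with overlapping groups. Lyz2, lysozyme, went the other way from Mpo, from 229, 198, 161, 118 and 120 FPKM in CMPs to 11208, 11892, 5587 and 5159 FPKM in the leukaemias (5.62 ± 0.30, adjusted p = 8.65e-08). Lyz2 and Mpo thus moved in opposite directions in every leukaemia.

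Monocyte and macrophage genes rose in 31 of 32 members (96.9%, against 13.2% of all genes tested) and fell in none (median 3.29). The exception was Irf8 (0.40 ± 0.31). Of the 32, 13 had a mean below 1 FPKM in CMPs and passed the filter through the leukaemias alone, so they had to be higher there. Itgam, CD11b, was at 9.46, 12.8, 8.59, 8.74 and 6.3 FPKM in CMPs and at 183, 218, 269 and 205 FPKM in the leukaemias (4.45 ± 0.18, adjusted p = 1.15e-08). Lgals3, galectin-3, was at 4.05 to 6.58 FPKM in CMPs and at 354, 392.4, 330.0 and 312 FPKM in the leukaemias (5.83 ± 0.14). The 4 leukaemias were close to each other for both genes, unlike for the neutrophil genes. Csf1r, the M-CSF receptor, rose less, from 9.89 to 32.5 FPKM in CMPs to 92.0, 98.9, 62.2 and 59.3 FPKM (2.19 ± 0.34). Ly6c2 (3.28), Cd14 (3.48), Emr1 (4.87) and Ctss (3.99) are further examples.

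The machinery of phagocytes followed. Against 13.2% of all genes tested, 87.5% of the phagocyte oxidase genes rose, 72.0% of the Toll-like receptor and inflammasome genes, 68.2% of the lysosome genes and 43.8% of the eicosanoid genes. Of 8 genes of the phagocyte oxidase, 7 rose, among them Cybb (6.45), Cyba (2.97) and Ncf1 (2.50), and Rac1 had a change of 0.72 ± 0.10. Of 25 Toll-like receptor and inflammasome genes, 18 rose and none fell (median 1.89), and 9 had a mean below 1 FPKM in CMPs. Tlr13, a receptor for bacterial RNA, was at 0.08 to 0.47 FPKM in CMPs and at 84.1, 89.2, 50.2 and 75.7 FPKM in the leukaemias (5.98 ± 0.18), while Tlr4 (0.68 ± 0.31) and Il1b (0.70 ± 0.46) did not pass the test. Of 22 lysosome genes, 15 rose and none fell (median 1.71), among them Ctsh (3.27) and Grn (2.82), while Ctsd had a change of 0.61. Of 16 genes of prostaglandins and leukotrienes, 4 had a mean below 1 FPKM in CMPs. Over the 16, 7 rose and 2 fell (12.5%, near the 15.2% of all genes tested). Of these falls, 1 was lost without CMP replicate 3 or CMP:MA9 replicate 1, 2 or 4. Ptges, which makes prostaglandin E2, was at 0 to 0.01 FPKM in CMPs and at 5.17, 2.8, 6.16 and 6.32 FPKM in the leukaemias, so that a synthase and the inactivating enzyme Hpgd both rose.

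Among the myeloid transcription factors, 11 of 25 rose (44%, against 13.2% of all genes tested). A mean below 1 FPKM was found for 3 of the 25 in CMPs and for 2 in the leukaemias. Of the 25, 3 fell (12%, near the 15.2% of all), or 6 without CMP replicate 3, and the median change was 0.57. Sfpi1, which encodes PU.1, was at 79.0, 80.6, 43.1, 53.9 and 38.4 FPKM in CMPs and at 216, 232, 245 and 263 FPKM in the leukaemias (2.06 ± 0.22, adjusted p = 1.54e-05). Cebpb rose from 0.21 to 0.76 FPKM in CMPs to 6.93, 5.21, 6.67 and 5.17 FPKM (2.33 ± 0.18). Cebpa, which takes CMPs to GMPs, was at 6.75 to 18.8 FPKM in CMPs and at 18.7, 15.6, 12.0 and 21.1 FPKM in the leukaemias (0.57 ± 0.30, adjusted p = 0.118). Cebpd, Cebpe, Klf4 and Id2 rose as well. Of the immediate early genes, which respond to stimuli and to stress, 3 of 16 fell (18.8%, near the 15.2% of all genes tested) and 1 rose (6.25%, against 13.2%), with 6 that fell without CMP replicate 3 and 3 that rose without CMP replicate 2. A mean below 1 FPKM was found for 3 of the 16 in the leukaemias and for 1 in CMPs. Jun was at 48.3, 117, 6.17, 23.7 and 19.0 FPKM in CMPs and at 1.85, 4.21, 1.85 and 3.03 FPKM in the leukaemias (−3.0 ± 0.63), and the sum over the list ran from 86.3 to 1589 FPKM among the CMPs alone. In the 250 upstream bases, the C/EBP motif was held by 41.2% of 17 neutrophil genes called higher, against 7.45% of all, the PU.1 motif by 29.4%, against 7.88%, the GATA motif by 23.5%, against 9.29%, and the KLF motif by 41.2%, against 32.6%. For 21 monocyte genes the C/EBP motif was held by 14.3%, the PU.1 and GATA motifs by 19.0% each and the KLF motif by 23.8%.

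The genes of lymphoid priming, which early progenitors transcribe at a low level, fell in 6 of 9 members (66.7%, against 15.2% of all genes tested) and rose in none (median −1.53), and 5 of the 9 had a mean below 1 FPKM in the leukaemias. Dntt, the terminal transferase of lymphocyte precursors, was listed at 0 in all 4 leukaemias and at 20.01 to 54.7 FPKM in CMPs (adjusted p = 5.6e-08). Among surface genes of stem cells and progenitors, 7 of 21 rose (33.3%, against 13.2%) and 8 fell (38.1%, against 15.2%). A mean below 1 FPKM in the leukaemias was found for 5 of the 21, which thus had to be lower there. Cd33, a receptor of myeloid cells, was at 1.3 to 3.72 FPKM in CMPs and at 89.0, 169, 208 and 168 FPKM in the leukaemias (5.49 ± 0.28). Eng, endoglin, fell by 4.11, and Slamf1, the gene of CD150, was listed at 0 in all leukaemias, against a mean of 3.44 FPKM in CMPs. Of 18 genes of homing and adhesion, 10 rose (55.6%) and none fell, and 2 had a mean below 1 FPKM in CMPs. Cxcr4, the receptor that holds cells in the marrow, was at 37.7 to 69.5 FPKM in CMPs and at 240, 232, 153 and 276 FPKM in the leukaemias (1.98 ± 0.21). Ccr1 rose by 4.15 and the integrin Itgb2 by 4.19, and Itga4 and Itgb1 did not pass the test. Of 9 MHC class II genes, of which 11.1% were called in each direction, H2-DMb1 rose (1.74), H2-Ob fell by 1.63, and Cd74 and the other 6 did not pass the test.

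Of 30 proliferation genes, 9 fell and none rose (30.0%, against 15.2% of all genes tested, median −0.63), and these were Mcm2 to Mcm7, Cdc6, Rrm1 and Tyms. At any size of change, 22 of the 30 were lower at an adjusted p below 0.05, against 4481 of all 12371 genes tested. Among the 22 was the topoisomerase gene Top2a, with a change of −0.78. Mcm2 was at 64.0, 70.9, 63.5, 45.7 and 73.9 FPKM in CMPs and at 17.9, 17.6, 30.8 and 16.9 FPKM in the leukaemias (−1.59 ± 0.20, adjusted p = 4.59e-05). Mki67, the proliferation marker, was at 117 to 143 FPKM in CMPs and at 117, 87.5, 127 and 102 FPKM in the leukaemias (−0.25 ± 0.13, adjusted p = 0.116). Of 11 CDK inhibitors, cyclins and kinases of G1, 3 rose (27.3%, against 13.2% of all genes tested) and 2 fell (18.2%, near 15.2%). A mean below 1 FPKM in CMPs was found for 1 of the 11. The cyclin gene Ccnd2 was at 38.3 to 43.1 FPKM in CMPs and at 0.58, 0.73, 4.28 and 3.76 FPKM in the leukaemias (−3.86 ± 0.34), while Ccnd3 rose. Cdkn1a, the inhibitor p21, was at 20.3 to 41.2 FPKM in CMPs and at 106, 123, 256.4 and 194 FPKM in the leukaemias (2.43 ± 0.28). Cdkn2b was listed at 0 in all CMPs and at 2.23, 1.36, 0.94 and 5.08 FPKM in the leukaemias.

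In the BCL2 family, 4 of 11 members rose (36.4%, against 13.2% of all genes tested) and Bcl2 alone fell (9.09%, against 15.2%). A mean below 1 FPKM in CMPs was found for 3 of the 11, which passed the filter through the leukaemias alone and had to be higher there. Bcl2 was at 22.8 to 49.6 FPKM in CMPs and at 13.4, 13.98, 13.2 and 11.5 FPKM in the leukaemias (−1.41 ± 0.20). Those that rose were Bcl2a1b (3.21) and Mcl1 (1.02), which protect cells, and Bmf (3.10) and Pmaip1 (3.44), which promote death. The call of Mcl1 was lost without CMP replicate 3, 4 or 5 or CMP:MA9 replicate 2. Of 22 glycolysis genes, 7 rose (31.8%, against 13.2% of all genes tested) and 3 fell (13.6%, near the 15.2% of all). Their median change was 0.72, and 11 rose with median-ratio scaling. Hexokinases moved in opposite directions. Hk1 was at 42.0, 44.1, 61.6, 59.0 and 88.4 FPKM in CMPs and at 11.6, 13.1, 15.7 and 13.7 FPKM in the leukaemias (−2.0 ± 0.20), and Hk3, the hexokinase of myeloid cells, was at 19.1 to 61.6 FPKM in CMPs and at 87.7, 116, 112 and 98.5 FPKM in the leukaemias (1.47 ± 0.32).

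To see where the change at the CMP differed from that at other origins, it was set against the mean change of the leukaemias from short-term stem cells (ST-HSCs), multipotent progenitors (MPPs) and GMPs, each against its own normal cells, in 1 limma fit of the 8 groups and 40 samples. The difference passed the test for 193 genes (1.56%), more positive at the CMP for 33 (0.267%) and more negative for 160 (1.29%). Without CMP replicate 5 the count was 112, and without ST-HSC replicates 4 and 5, which stood apart in high neutrophil genes, it was 204. Against the GMP alone it was 1336, against the MPP alone 345 and against the ST-HSC alone 214. Against the ST-HSC alone the direction turned, with 129 more positive and 85 more negative, and 42 of the 193 genes (21.8%) were shared. Against the MPP alone, 132 were more positive and 213 more negative, and against the GMP alone 458 and 878. In the same fit, 1640 genes were called higher and 1886 lower at the CMP, and 714 (43.5%) and 394 (20.9%) of these were called the same way at all 4 origins.

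Erythroid genes were among the negative differences. Of the 32 erythroid effectors 17 were more negative at the CMP, and of the 16 erythroid transcription factors 4, with none of either list more positive, against 1.29% and 0.267% of all genes tested. The summed level of the effector list in normal ST-HSCs ran from 818 to 44584 FPKM, with a median of 7304, and thus spread beyond that of normal CMPs, at 1579 to 5636 with a median of 2353. The difference was −5.19 ± 0.74 for Car1 (adjusted p = 2.7e-05), −3.62 ± 0.52 for Ermap and −3.53 ± 0.41 for Atp1b2. The carboxylesterase gene Ces2g (−3.67), Sphk1 (−3.47), the sphingosine kinase, and the metallothionein Mt2 (−3.28) complete the 6 largest named. For these 6 genes the leukaemias of all origins were at 0 to 9.92 FPKM, and the normal cells differed. Car1 was at 184 to 2541 FPKM in normal CMPs, against 113 to 173 FPKM in ST-HSCs, 9.75 to 103 FPKM in MPPs and 0.65 to 17.1 FPKM in GMPs, and it was at most 2.44 FPKM in any leukaemia. Kit fell at all 4 origins, by 5.87 at the CMP, 5.48 at the ST-HSC, 5.82 at the MPP and 4.17 at the GMP.

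The largest positive differences were of eosinophil granule genes. Prg2, the major basic protein gene, was at 0.62, 0.23, 2.42, 0.59 and 4.21 FPKM in CMPs and at 7.64, 110.7, 275 and 66.7 FPKM in the leukaemias (log2 change 4.86 ± 0.83, adjusted p = 0.000448). At the other origins it changed by −4.54 (ST-HSC), −4.10 (MPP) and −4.60 (GMP), so that the difference was 9.27 ± 1.23 (adjusted p = 1.07e-05). The leukaemias of the 4 origins overlapped, at 5.4 to 55.4, 0.43 to 54.1, 7.64 to 275 and 1.94 to 400 FPKM from ST-HSC, MPP, CMP and GMP, whereas normal ST-HSCs were at 145 to 796, MPPs at 50.1 to 1396 and GMPs at 291 to 1260 FPKM. Normal CMPs alone among these 4 were near 0. The ribonuclease genes Ear2 (4.14 ± 0.87) and Ear6 (4.03 ± 1.10) and Prg3 (3.62 ± 0.76) had the same sign. In Ear2, 59.2% of the 31-base windows also occurred in other genes, so its level is uncertain. Ear6 was at 1, 0.15, 16.6 and 0.34 FPKM in the CMP:MA9 samples. It did not pass the limma test of CMP:MA9 against CMP (log2 change 1.38 ± 0.67, adjusted p = 0.096). Of 10 mast cell, basophil and eosinophil genes, 4 were more positive at the CMP, against 0.267% of all genes tested. In CMP:MA9 against CMP, 4 of the 10 rose (40%, against 13.2% of all) and 3 fell (30%, against 15.2%). Ear2, Ear6 and Prg3 had a mean below 1 FPKM in CMPs and passed the filter through the leukaemias alone, so they had to be higher there. Kit and Ms4a2 had a mean below 1 FPKM in the leukaemias and had to be lower there. The median change of the 10 was 0.60, and −0.69 without CMP:MA9 replicate 3 and CMP replicate 5. The difference of Ear6 lost its call without CMP replicate 3, 4 or 5, CMP:MA9 replicate 1 or STHSC:MA9 replicate 3, and that of Ly6a without CMP replicate 5 or CMP:MA9 replicate 2. Fcgr3 (2.30 ± 0.43) and Ly6a (2.25 ± 0.56) are Fcγ receptor and Sca-1 genes, on whose proteins the normal populations were separated, and normal GMPs had Fcgr3 at 130 to 190 FPKM against 1.87 to 9.98 FPKM in CMPs.

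**Figure D5:**
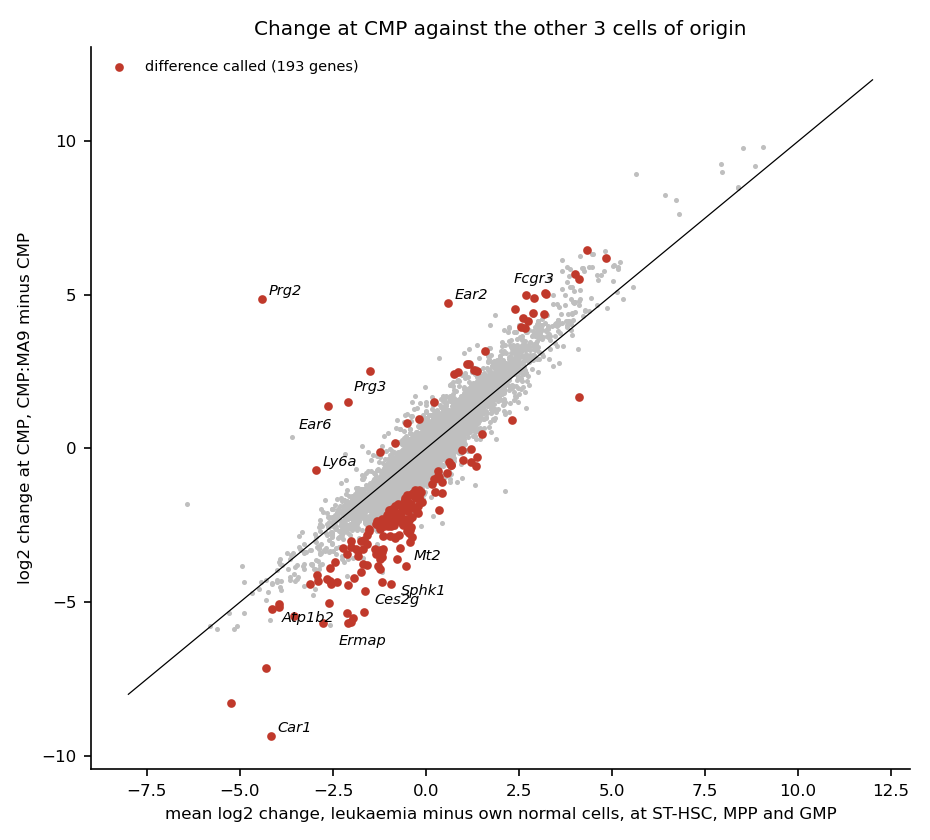
Each point is 1 gene, with the mean of its log2 changes at the ST-HSC, MPP and GMP on the x axis and its log2 change at the CMP on the y axis; the line marks equal change and red points are the 193 genes whose difference was called. Prg2 lies above the line with a difference of 9.27, and Car1 below it with −5.19.

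Hoxa9, Hoxa10, Hoxa7 and Meis1 did not pass the test of a difference from the mean of the other origins, and their changes were largest at the GMP, where the normal cells had the least. Hoxa9 rose by 2.78 at the GMP, where normal cells had 2.57 to 3.97 FPKM, and by 1.68 at the CMP, where they had 5.61 to 10.4 FPKM, and changed by 0.80 at the ST-HSC and 0.23 at the MPP, where normal cells had 6.58 to 16.8 and 18.6 to 25.2 FPKM. Meis1 changed by 2.65 at the GMP and −0.19 at the CMP, from 3.52 to 10.5 FPKM in normal GMPs and 34.3 to 64.8 FPKM in normal CMPs. The leukaemias overlapped for both genes, at 12.5 to 54.0 FPKM for Hoxa9 and 23.7 to 95.5 FPKM for Meis1 over the 4 origins.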

How the data were processed

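The authors amplified cDNA from sorted cells, sequenced it and quantified genes with RSEM, with mm9 named in their processing notes, and deposited 1 table of FPKM values with 2 decimals; per-sample counts were not used here, so depth is known only relative to the other samples, from the step between low values. Of 68 columns of values, 49 could be tied to a sample by its label, and the other 19 were left out. Samples were grouped by their labels. The members and gene lists were chosen with earlier results of these data known.

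Genes that averaged 1 FPKM or more over the 9 samples were fitted in limma 3.58.1 (R 4.3.3) on log2(FPKM + 1), letting the variance depend on the level. Tests were two-sided, p-values were adjusted by Benjamini-Hochberg over all 12371 genes, and genes were called at an adjusted p below 0.05 and a log2 change above 1 in size. A gene said not to pass the test missed the p-value, the size of change or both. All ± values of log2 changes are standard errors, and fold changes on this scale understate those of low genes. Where every sample of a group was listed at 0, no fold is given. List members with a mean below 1 FPKM in 1 group passed the filter through the other group alone, so they had to be higher there. P-values cover the spread between these samples, and samples could not be assigned to replicate experiments from their labels. Named were the 12 largest rises and falls without overlap, leaving out the 477 called genes that are unnamed gene models, clones or pseudogenes, the first 3 members and the largest called rise and fall of each list, and the 6 largest differences from the other origins in each direction; other list members were named after their values were seen. Alternatives were a pseudocount of 0.1, median-ratio scaling, no filter, no trend, no fold threshold, a fit of 8 groups, correction for GC content and length, a replicate block and leaving out each sample. The scripts were tested on simulated data. Gene positions are NCBIM37.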

Additional observations from a re-analysis of the deposited data

Results flagged for a closer look

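In 21 of the 262 groups of 4 or 5 samples examined over the named genes (8.02%), 1 sample lay far from the others, where chance gives about 1 in 20. In 6 of the 21, for Car1, Pf4, Atp1b2, Tal1, Ear6 and Ptges, all other samples of the group were at 0 FPKM, so that any value above 0 stands apart, and no excess over chance is read from the count. In CMP:MA9 replicate 2, Car1 was at 0.08, Pf4 at 0.2, Atp1b2 at 0.59 and Tal1 at 0.14 FPKM, with the other 3 leukaemias at 0 for each, while Dnmt3a was at 12.82 FPKM there. CMP:MA9 replicate 3 stood apart at 0.56 FPKM for Ces2g, 15.91 for Thbs1, 24.43 for Cd34, 34.59 for Fcgr2b and 30.8 for Mcm2. CMP:MA9 replicate 1 was at 0 FPKM for Klf1, against 0.17 to 0.19 in the other leukaemias, and replicate 4 at 8.82 FPKM for Pdgfrb. Among the CMPs, replicate 4 stood apart at 26.77 FPKM for Cyba, 16.39 for Men1 and 66.51 for Dnmt1. CMP replicate 5 stood apart at 0.23 FPKM for Ear6, 0.5 for Tlr4 and 15.15 for Flt3. CMP replicate 1 was at 0.01 FPKM for Ptges and 0.47 for Tlr13, and replicate 2 at 13.4 FPKM for Nr4a1. The cause was not tested.

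For 22 named genes the change at the CMP differed from the mean change at the other 3 origins in limma's test of the difference, on the log2(FPKM + 1) scale. Over all genes tested the share was 1.56%, and 12 genes were named for having the largest such differences, so the count is in part fixed by the naming. It was more positive at the CMP for the eosinophil genes Prg2 (9.27), Ear2 (4.14), Ear6 (4.03) and Prg3 (3.62), and for Fcgr3 (2.3), Ly6a (2.25) and Cybb (2.13). Among red cell genes it was more negative for Car1 (−5.19), Car2 (−3.03), Ermap (−3.62), Epor (−2.55) and the transcription factors Gata1 (−2.35), Klf1 (−3), Zfpm1 (−1.88) and Tal1 (−1.1). It was also more negative for Mfsd2b (−2.93), Atp1b2 (−3.53), Ces2g (−3.67), Sphk1 (−3.47), Mt2 (−3.28), the platelet chemokine Pf4 (−2.86) and the thrombin receptor F2r (−1.9). These differences are from a mean of origins and need not hold against each origin. Pf4 fell by 8.27 at the ST-HSC and 7.15 at the CMP, F2r by 6.09 and 5.44, and Zfpm1 by 4.89 and 4.43. Gata1 and F2r were listed at 0 in all CMP:MA9 samples, so the size of their difference depends on the pseudocount. The adjusted p-values of these 22 ran from 1.3e-09 for Mfsd2b to 0.0414 for Cybb.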

How the results depend on the processing

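The count of genes called between CMP:MA9 and CMP was 3521, ran from 3180 to 4116 under the other settings with the fold threshold, and was 7431 without it; leaving out 1 sample gave 3307 to 3799. The count of genes whose change at the CMP differed from the other origins was 193, and it was 1336 against the GMP alone, 345 against the MPP alone and 415 without the fold threshold. Leaving out 1 sample gave 112 (CMP replicate 5) to 231, and leaving out both CMP:MA9 replicate 3 and CMP replicate 5, a choice made after seeing the data, gave 114. Over 2930 pairs of a named gene and a setting, 2853 kept their direction and side of the threshold, 54 lost the call, 23 gained one and 0 reversed. The calls of Cpa3, Ltf, Thbs1, Vcam1 and Mcl1 were lost when certain single samples were left out, as were the differences of Ear6 and Ly6a between origins, and that of Dnmt1 with median-ratio scaling. The replicate numbers are shared between the groups, but the deviations of same-numbered samples correlated at only 0.0461 to 0.104, so they were not taken as pairs; a fit with the replicate number as a block called 3328 genes, and 161 for the difference between origins, and CMP:MA9 replicates 2 and 4 alone correlated best with the CMP sample of their own number. With the block and the GC and length correction together these counts were 3180 and 135. Depth in reads is not known from FPKM, so values near 0 carry no counting limit, and the design cannot separate transformation from organ, host or sort.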
